A study of Mus musculus with 8 samples.

Results

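The regions described here are the flanks of short stretches of the mouse genome that no ChIP-seq tag of the data set reached. Tag midpoints of all 8 libraries were pooled on chromosomes 1 to 19, and a gap was taken where neighbouring pooled midpoints lay at least 1500 bp and less than 4000 bp apart. The 1 kb on each side of such a gap is its flank, whether or not all of it can be mapped. Both flanks of a gap are counted together unless a side is named. There were 16496 such gaps among 23281 gaps of 1500 bp or more. The pooled tag positions chose the members, so the low tag density at their edges follows from the rule and is given only as a description. The time points were not represented by equal numbers of libraries in this pool, and the rule did not use their difference.

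H3K9me3 was measured by ChIP-seq in JM8 mouse embryonic stem (ES) cells, a feeder-free C57BL/6N line grown in serum and LIF, with the genotype *Setdb1 tm1c/tm2*. The *tm2* allele is a constitutive null allele, and *tm1c* is conditional. All 8 libraries come from such cells, which also carry a CreERT2 recombinase at the ubiquitously expressed *Rosa26* locus, and 48 h with 0.8 μM 4′OHT turn *tm1c* into the null *tm1d* allele. The sample labels call the untreated and treated genotypes *tm1a/tm2* and *tm1c/tm2*, and the names of the paper are used here. The cells are clonal lines, in which the study describes a low and variable recombination without 4′OHT in some samples and the possibility that a small number of cells escape recombination after it. *T* = 0 is the untreated state, and *T* = 2d, 4d and 6d are 2, 4 and 6 days after the start of treatment.

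An antibody of the Upstate type was used at all 4 time points, and lots 58206 and 638466 of an Abcam antibody at *T* = 0 and *T* = 6d, with 1 library per antibody and time point. Libraries of *tm1c/+* control cells and input chromatin were not analysed here. Without input, the level at a flank mixes the mark with mappability, which cannot be told apart in these files. Depth was 6887819 tags per Upstate-type library, 8503927 per library of lot 58206 and 12194174 per library of lot 638466, and 67233831 tags lay on chromosomes 1 to 19. The median 2-kb tile away from gaps held 4 Upstate-type tags at every time point, 6 or 7 tags of lot 58206 and 10 of lot 638466. The markers that define ES cells were not checked, since the files hold no expression.

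Setdb1 is a histone methyltransferase that places methyl groups on lysine 9 of histone H3. In ES cells it acts together with Trim28 (KAP1) and the KRAB zinc finger proteins, which recognise retroviral and other repeat sequences, and the resulting H3K9me3 helps to keep endogenous retroviruses silent. Copies of a young repeat are nearly identical, so a short read from inside one has no unique place in the genome, while the single-copy sequence beside it can still be read. A gap can also be missing sequence of the genome assembly, and which gaps hold a repeat was not determined here, because the repeat annotation of mm9, the build of the files, was not used.

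The gaps were short and often close together. They covered 37.7 Mb in all, with a median length of 2093 bp and quartiles of 1731 and 2714 bp. Gaps from 1500 to below 2000 bp made up 7406 (44.9%) of them and gaps from 3500 to below 4000 bp 1191 (7.22%). The number per 500 bp of length fell from 7406 to 3753, 2480, 1666 and 1191 across the range, and beyond it to 701 from 5500 to below 6000 bp, before rising again to 1491 from 6000 to below 6500 bp. This second maximum lies outside the limits used here, and no such maximum was seen within them.

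**Figure D1:**
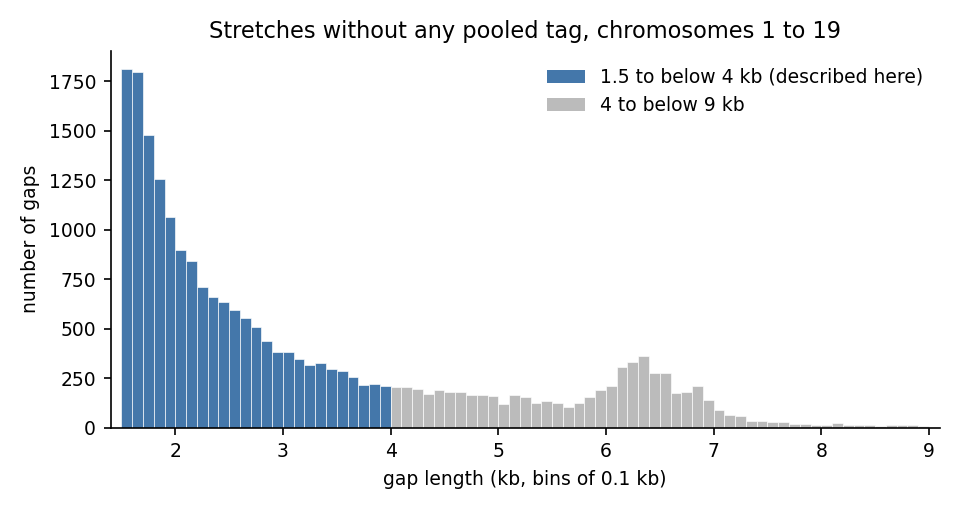
The number of gaps without any pooled tag is plotted against gap length in bins of 0.1 kb, with gaps of 1.5 to below 4 kb in blue and those of 4 to below 9 kb in grey. Numbers fall steadily through the blue range, and the grey range has a second maximum between 6 and 7 kb.

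The distance from a gap to the nearest gap of 1500 bp or more had a median of 1.39 kb, and 8900 gaps (54.0%) shared at least a piece of flank with another gap. Tags in a shared flank are counted for both gaps, so these members are not independent measurements, and results are also given for the 7596 gaps that shared none. The longest chain of gaps linked by shared flanks, longer gaps included, held 42 gaps and ran from 11556610 to 11813954 on chromosome 5 (mm9). Density over chromosomes ranged from 3.74 gaps per Mb on chromosome 11 to 12.1 on chromosome 14.

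Before treatment the flanks held fewer tags than sequence 20 kb further out, and after treatment they held fewer still, with every antibody. The mean flank pair held 2.51, 2.14, 1.85 and 1.82 Upstate-type tags at *T* = 0, 2d, 4d and 6d. With lot 58206 the mean was 3.44 tags at *T* = 0 and 2.82 at *T* = 6d, and with lot 638466 it was 4.55 and 4.11. The value at *T* = 0 was the higher of each pair, and with the Upstate-type antibody the values declined at every step, least between 4 and 6 days.

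The 1-kb pieces 20 kb beyond the flanks gave the local background. A pair of them held 3.51, 3.38, 3.56 and 3.47 Upstate-type tags at the successive time points. It held 5.08 and 5.08 tags with lot 58206 and 7.07 and 7.52 with lot 638466. The outer pieces moved little and in either direction, so the decline at the flanks was not matched by one 20 kb away.

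Dividing flank tags by outer tags gave the flank level used below. For the 7596 gaps with flanks of their own, the level with the Upstate-type antibody was 0.785 (0.772 to 0.799, the 95% interval) at *T* = 0, 0.712 (0.699 to 0.725) at *T* = 2d, 0.621 (0.610 to 0.633) at *T* = 4d and 0.635 (0.624 to 0.647) at *T* = 6d. With lot 58206 it was 0.751 (0.740 to 0.762) before and 0.650 (0.640 to 0.660) 6 days after the start of treatment. With lot 638466 these levels were 0.735 (0.726 to 0.744) and 0.652 (0.644 to 0.660). The *T* = 0 level lay above the *T* = 6d level in all 3 antibodies, outside the intervals, which cover counting error only.

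**Figure D2:**
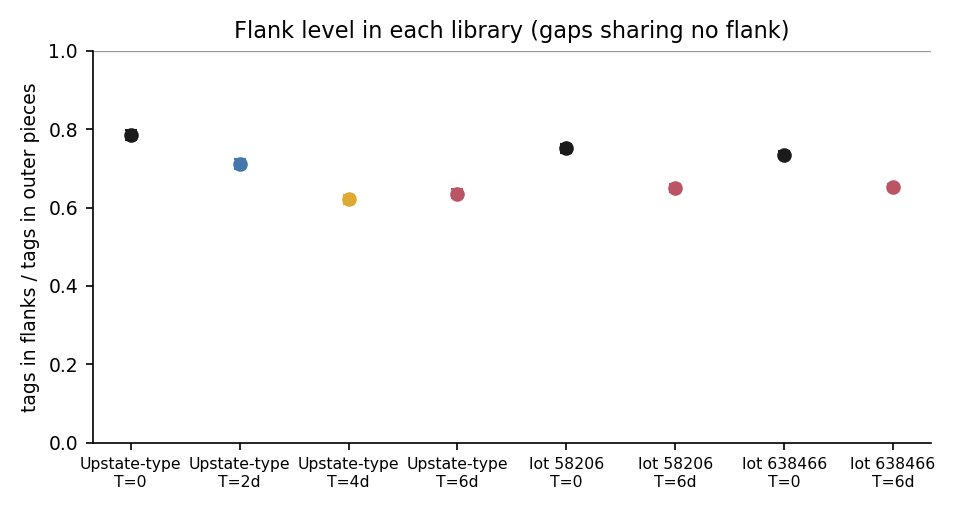
Flank level (tags in flanks divided by tags in the pieces 20 kb further out) in each of the 8 libraries for gaps that share no flank. Points are the summed ratio and bars the 95% counting interval, mostly smaller than the point, and all T = 0 levels lie above 0.7 while all T = 6d levels lie below it.

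Over all 16496 gaps the flank level with the Upstate-type antibody fell to 0.885 of its *T* = 0 value (0.868 to 0.901) at *T* = 2d, to 0.728 (0.714 to 0.741) at *T* = 4d and to 0.733 (0.720 to 0.747) at *T* = 6d. Between 2 and 4 days it fell to 0.823 (0.807 to 0.839) of the earlier level, whereas the ratio of 6 to 4 days was 1.01 (0.988 to 1.03), an interval that includes no change. At *T* = 6d the level was 0.820 (0.807 to 0.833) of *T* = 0 with lot 58206 and 0.849 (0.838 to 0.860) with lot 638466. For gaps with unshared flanks the corresponding values at *T* = 6d were 0.809 for Upstate-type tags, 0.866 for lot 58206 and 0.888 for lot 638466.

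The mean log2 change over antibodies at *T* = 6d was −0.32 (SD 0.11, n = 3 antibodies), a fold of 0.799, and was lower in 3 of 3 antibodies. An exact two-sided sign-flip permutation test gave *P* = 0.25, the smallest value that 3 antibodies allow. The antibodies are preparations used on these cells and no source states that their libraries come from separate cultures, so every *P*-value across them measures the spread between libraries. Less mark per cell and fewer cells that carry it cannot be told apart in a bulk experiment.

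The fall was present on every chromosome tested. The *T* = 6d level relative to *T* = 0 ranged over the 19 chromosomes between 0.648 and 0.811 for Upstate-type tags, between 0.752 and 0.891 for lot 58206 and between 0.786 and 0.900 for lot 638466. No chromosome had a ratio above 1 with any of them.

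The longest gaps within the class had the highest flank levels before treatment, and the shortest had the smallest declines after it. With the Upstate-type antibody, the level at *T* = 0 was 0.688, 0.689, 0.733, 0.768 and 0.846 in successive 500-bp classes of gap length. With the Abcam lots it did not rise in order, at 0.667, 0.653, 0.683, 0.712 and 0.751 for lot 58206 and 0.643, 0.615, 0.665, 0.645 and 0.697 for lot 638466. The Upstate-type level at *T* = 6d relative to *T* = 0 was 0.803, 0.734, 0.690, 0.630 and 0.594 in the same classes, a decline at each step. The order of the changes was less regular with the Abcam lots, where this ratio was 0.854, 0.825, 0.789, 0.752 and 0.772 with lot 58206 and 0.880, 0.847, 0.818, 0.843 and 0.748 with lot 638466. In each antibody the shortest class changed least.

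Values near the limits of the rule were as follows. Gaps from 1400 to below 1500 bp, just too short, numbered 2113 and had an Upstate-type *T* = 0 level of 0.653 and a change to 0.782 of it at *T* = 6d. The 1814 gaps from 1500 to below 1600 bp had a level of 0.647 and a change to 0.816. At the upper limit the 213 gaps from 3900 to below 4000 bp had a level of 0.940 and a change to 0.537, and the 205 gaps from 4000 to below 4100 bp, just too long, had 1.14 and 0.504. Neither limit separated gaps with a decline from gaps without it.

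Gaps from 4000 to below 9000 bp (n = 6241) had more tags beside them and lost a larger share. Their flank level with the Upstate-type antibody was 1.22, 1.01, 0.736 and 0.698 at the successive time points, compared with 0.715, 0.632, 0.520 and 0.524 for all gaps below 4000 bp. With lot 58206 it was 1.11 and 0.848, and with lot 638466 it was 1.01 and 0.796. The log2 level at *T* = 0 was higher than that of the shorter gaps by 0.71 (SD 0.06, n = 3 antibodies). The log2 change at *T* = 6d differed from that of the shorter gaps by −0.36 with the Upstate-type antibody and by −0.10 with each Abcam lot (mean −0.19, SD 0.15), and each difference had the same sign in 3 of 3 antibodies. The exact sign-flip permutation test gave *P* = 0.25 for both differences, again the smallest possible.

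With the Upstate-type antibody the decline reached several kb into the sequence beside a gap. Over all gaps, Upstate-type tags at *T* = 6d were 0.726 of those at *T* = 0 in the first 1 kb, 0.763 in the second, 0.816 in the third, 0.849 in the fourth and 0.883 in the fifth. The ratio was 0.963 in the piece that starts 7 kb from the gap and 0.99 at 20 kb. The ratio was thus lowest next to the gap and rose at each of these distances. Tags of lot 58206 were 0.821, 0.849, 0.875, 0.915 and 0.920 of *T* = 0 in the first 5 pieces. Those of lot 638466 were 0.903, 0.955, 0.981 and 0.993 in the first 4 pieces and then 1.02 in the fifth. With this lot the ratio at 20 kb was 1.06, and all of the first 5 pieces lay below it. Pieces further out can contain the flank of another gap.

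**Figure D3:**
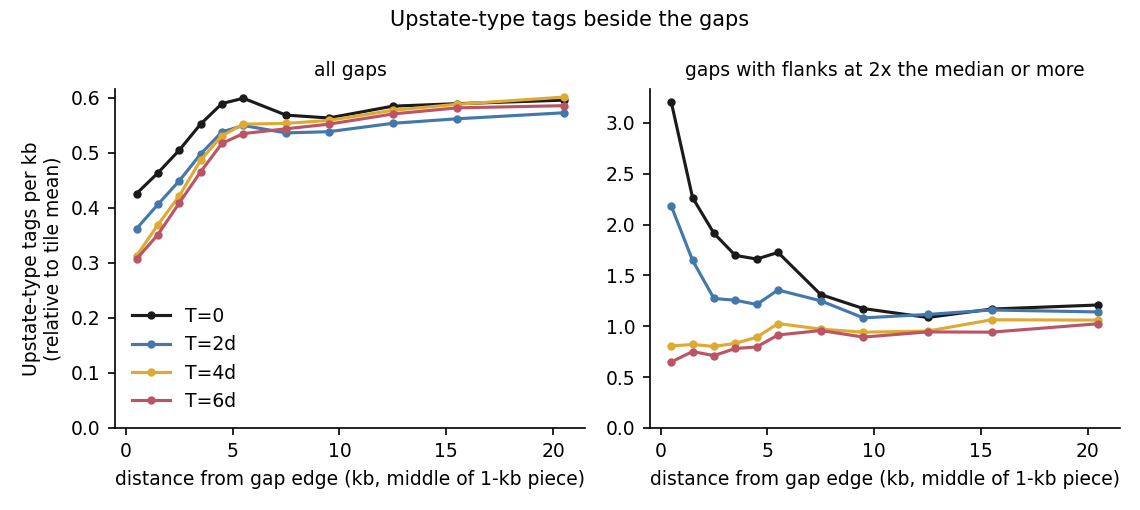
Upstate-type tags per kb, divided by the mean of 2-kb tiles away from gaps, are plotted against the distance from the gap edge in kb, for all gaps on the left and for the 212 gaps with flanks at 2 times the tile median or more on the right. Lines are the 4 time points. They lie apart at the edge and approach each other with distance, and the T = 0 line rises away from the gap on the left but falls on the right.

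The decline was larger at flanks that held more H3K9me3 tags before treatment. Gaps were sorted by the sum of Abcam tags of both lots at *T* = 0, relative to the median 2-kb tile, and followed in the Upstate-type libraries, which this sorting did not use. Below 0.5 times the median lay 10613 gaps (64.3%), where the Upstate-type tags at *T* = 6d were 0.947 (0.923 to 0.970) of those at *T* = 0. In the 3983 gaps at 0.5 to 1 times the median the ratio was 0.829 (0.808 to 0.850), and in the 1688 at 1 to 2 times it was 0.539 (0.523 to 0.557). In the 171 gaps at 2 to 3 times the ratio was 0.216 (0.197 to 0.236), and in the 41 gaps at 3 times or more it was 0.174 (0.149 to 0.202). The ratio was lower in each higher class, and most of the flanks held too few tags to show a change on their own.

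Tiles away from gaps, sorted in the same way, had higher ratios than the flanks at every level, and in the lowest classes the tiles rose. Their *T* = 6d to *T* = 0 ratios with the Upstate-type antibody were 1.14, 1.11, 0.992, 0.632 and 0.494 in the same classes, and each lay above the interval of the flanks. The classes were not matched in Upstate-type tags. At 2 to 3 times the median the flanks held 16.6 of them at *T* = 0 and the tiles 9.74. For the outer pieces the ratios were 1.05, 1.05, 0.949, 0.586 and 0.514. The tile class at 3 times the median or more (n = 6252) held 19.1 Upstate-type tags at *T* = 0 and 9.45 at *T* = 6d, while with lot 58206 it went from 39.0 to 47.6 tags. The flanks of the same class held 29.6 and then 7.49 tags of that lot, and 36.5 and then 10.2 of lot 638466, although those *T* = 0 values were used to sort them and are given as a description.

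**Figure D4:**
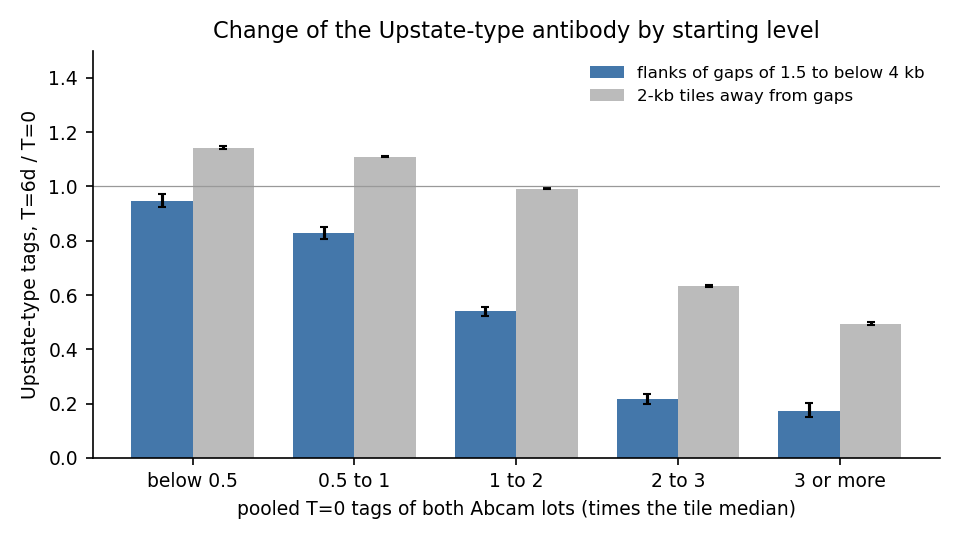
Upstate-type tags at T = 6d divided by those at T = 0, for gap flanks (blue) and 2-kb tiles away from gaps (grey), in classes of the pooled Abcam T = 0 tags relative to the tile median. Bars start at 0 and error bars are 95% counting intervals, and the blue bars go from 0.947 down to 0.174 while the grey bars go from 1.14 down to 0.494.

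Sorting the other way round left the Abcam libraries out of the sort. The 497 gaps whose flanks held at least 3 times the tile median with the Upstate-type antibody at *T* = 0 went from 13.6 to 4.52 tags with lot 58206, a ratio of 0.333 (0.317 to 0.349), and from 16.9 to 7.36 tags with lot 638466, a ratio of 0.435 (0.418 to 0.452). The 108687 tiles chosen alike had ratios of 0.750 and 0.796. At *T* = 0 these tiles held fewer Abcam tags than the flanks, 9.44 with lot 58206 and 14.1 with lot 638466. They held more Upstate-type tags, 24.0 beside 17.5 at the flanks, so tiles and flanks were not matched in level. The decline at flanks with many tags was thus seen with libraries outside the sort in both directions, although all 8 libraries had entered the pool that located the gaps. Both sorts used *T* = 0 libraries alone, so flanks high only after treatment did not enter the high classes.

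Most of the decline took place before day 4. In the class at 3 times the median or more, the mean went from 28.2 Upstate-type tags at *T* = 0 to 16.6, 5.76 and 4.90 at *T* = 2d, 4d and 6d. By *T* = 2d this class had reached 49.6% of its fall over 6 days and by *T* = 4d 96.3%. The class at 2 to 3 times the median went from 16.6 to 12.0, 4.53 and 3.59 tags, with 35.7% of the fall reached by *T* = 2d and 92.8% by *T* = 4d. Tiles of the highest class had reached 31.7% and 82.4%.

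The 41 gaps with flanks at 3 times the median or more are called enriched gaps here. Their median was 26, 14, 4 and 4 Upstate-type tags at the successive time points. For lot 58206 it was 27 tags before and 5 after treatment, and for lot 638466 34 and 9. Single enriched gaps held between 7 and 61 Upstate-type tags at *T* = 0 and between 0 and 34 at *T* = 6d. The number of tags fell at each of the 3 steps in 22 of them (53.7%), compared with 18.0% of the tiles at the same limit, and rose at each step in 0.

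**Figure D5:**
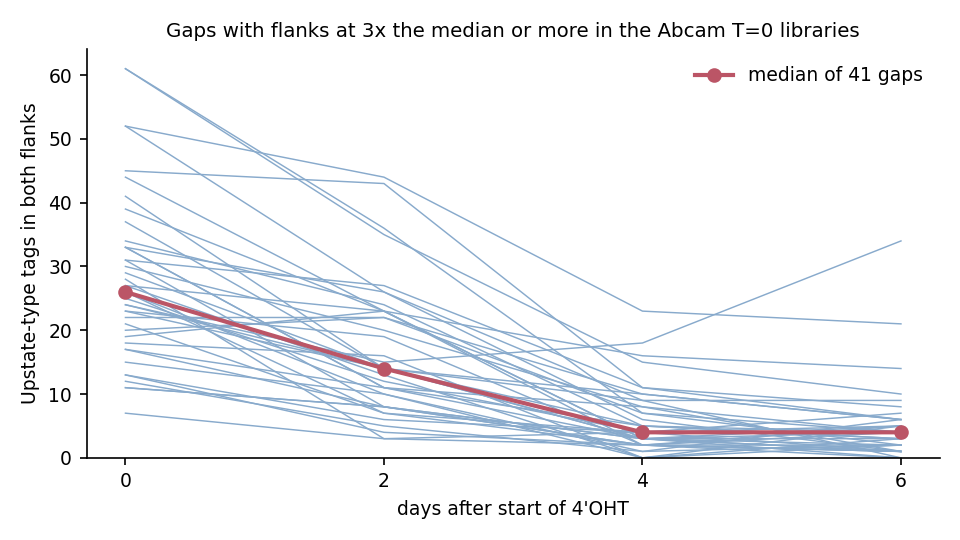
Upstate-type tags in both flanks of each of the 41 enriched gaps (thin lines) against days after the start of 4′OHT, with the median in red. The median falls from 26 tags to 14 and 4 and stays at 4, and a single line ends above its start, at 34 tags on day 6.

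Single gaps were tested in each later Upstate-type library against that of *T* = 0. Fisher's exact test (two-sided) was used, which compares libraries and not conditions, and a call needed *P* below 0.01 together with more than 1.5-fold change. At *T* = 2d, 8 of the 41 enriched gaps were lower (19.5%, exact interval 8.82 to 34.9%), against 7.74% of the 6252 tiles at the same limit. At *T* = 4d, 33 were lower (80.5%, 65.1 to 91.2%), against 24.7% of tiles, and at *T* = 6d 34 were (82.9%, 67.9 to 92.8%), against 28.4%. None of the 41 was higher at any of these times by this rule, where 1.07%, 0.384% and 0.464% of tiles were. Without the limit on the fold, 17, 36 and 36 had *P* below 0.05 in either direction. The tiles match the enriched gaps only in the sum of Abcam tags, and in the tested *T* = 0 library they held 19.1 tags on average against 28.2 beside the gaps. The part of this difference in the shares was not tested. The choice of gaps and tiles used *T* = 0 libraries alone, so regions high only after treatment were left out. The lean towards lower calls is therefore partly set by the choice. With *T* = 0 and *T* = 6d of the Abcam lots pooled for the choice, 2, 4 and 4 of 5 gaps were lower at the successive times. Among the 25 enriched gaps that share no flank, counted after the data were seen, 4 (16%), 20 (80%) and 22 (88%) were lower at the successive times. The intervals above treat the 41 gaps as independent, which those with a shared flank are not. Where enrichment was set at 2 times the median instead, 17 of 212 gaps (8.02%) were lower at *T* = 2d (tiles 2.9%), 116 (54.7%) at *T* = 4d (tiles 10.8%) and 127 (59.9%) at *T* = 6d (tiles 13.5%). Of these 212 gaps, 2 were higher at *T* = 2d (0.943%, tiles 0.623%), and 0 were at *T* = 4d (tiles 0.383%) and *T* = 6d (tiles 0.508%).

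The same test between neighbouring time points called 14 enriched gaps lower at *T* = 4d than at *T* = 2d (34.1%, tiles 9.17%) and 1 lower at *T* = 6d than at *T* = 4d (2.44%, tiles 1.84%). At *T* = 4d the median enriched gap held 4 Upstate-type tags, too few for even their complete loss to pass. The last count therefore cannot tell whether the decline had ended by *T* = 4d. With the Abcam lots, whose *T* = 0 tags chose the enriched gaps, 35 were lower at *T* = 6d with lot 58206 and 34 with lot 638466. The background was 26.5% and 31.9% of tiles. With lot 58206, 28.8% of these tiles were higher at *T* = 6d, and 0 of the enriched gaps were. The tiles held 39.0 tags of lot 58206 and 30.1 of lot 638466 at *T* = 0, and the enriched gaps 29.6 and 36.5. The 2 lots thus had unlike parts in the sum that chose tiles and gaps. Nothing is read from these counts because the choice used the same libraries. All *T* = 0 libraries lay above all *T* = 6d libraries in 38 of the 41 (tiles 30.3%) and in 185 of the 212 gaps (tiles 24%), scaled to the deposited tags, where the same reserve holds.

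Enriched gaps were spread over the genome. The 212 gaps at 2 times the median or more included at least 4 on each of the 19 chromosomes and at most 17, on chromosome 8. As a share of the gaps of a chromosome they ranged from 0.726% on chromosome 12 to 2.92% on chromosome 11, the chromosome with the lowest density of gaps. Their median gap length was 2374 bp, and 28.3% were at least 3000 bp long, compared with 17.3% of all gaps. Among the 41, 16 shared a flank with another gap.

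The tags often lay mostly on 1 side, and whether the other side lacks the mark or unique sequence cannot be told apart. Of the 25 enriched gaps with unshared flanks, 11 had less than 20% of their Abcam *T* = 0 tags on the weaker side, and of the 122 such gaps at 2 times the median or more 65 did. Among all 1302 unshared gaps at the tile median or more the share was 25.3% (330 gaps). The stronger sides of the 25 gaps summed to 535 Upstate-type tags at *T* = 0 and to 323, 99 and 88 at *T* = 2d, 4d and 6d, a final ratio of 0.164. Their weaker sides summed to 212, 154, 57 and 33 tags, a ratio of 0.156. In the 122 gaps the stronger sides went from 1873 to 1332, 491 and 370 tags and the weaker from 542 to 415, 198 and 158, ratios of 0.198 and 0.292. Both sides declined in both sets. The stronger side was picked by its Abcam tags, and the difference between the sides was not tested.

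Around the 212 gaps at 2 times the median or more, the decline was larger and reached further than over all gaps. Upstate-type tags at *T* = 6d were 0.204 of *T* = 0 in the first 1 kb, 0.334 in the next, 0.533 in the piece that starts 5 kb away, 0.735 at 7 kb and 0.853 at 20 kb. The Abcam ratios were 0.279 in the first 1 kb and 0.902 at 20 kb for lot 58206, and 0.329 and 0.894 for lot 638466. Their *T* = 0 tags in the first 1 kb chose these gaps, so the Abcam values are given as a description.

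The 6-day difference was then fitted over the 3 antibodies in limma, for values of log2(tags per 1000000 deposited tags + 0.5), in a model that held an antibody term. Gap flanks, outer pairs and tiles were fitted in 1 table of 96709 regions that averaged at least 2 times the tile median. Only 129 of the 16496 gaps (0.782%) reached that level, so the comparison concerns a small, highly marked minority. Of these, 104 passed through their *T* = 0 libraries alone, 21 at both time points and 4 through *T* = 6d alone. The share that declined among those that passed is therefore partly set by the filter and does not describe all gaps. The same holds for the 10 gaps with the largest falls described below, all of which passed through *T* = 0 alone. It also holds for chr9:121234019-121237489 and chr16:33849723-33852187, which passed in this way too. These latter gaps were named as enriched gaps, a choice that used Abcam *T* = 0 libraries of the limma fit, so their limma *P*-values are given as a description.

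By limma with Benjamini-Hochberg adjustment (adjusted *P* below 0.05 and more than 1.5-fold), 73 gaps were lower at *T* = 6d. The background was 3.02% of the 95853 tiles and 2.67% of the 486 outer pairs, and only 14212 of the tiles had passed through *T* = 0 alone. The number higher was 0 (tiles 0.0146%). At an unadjusted limma *P* below 0.05, 100 gaps were lower and 0 higher, beside 8401 and 1037 of the 95853 tiles. All 73 were lower with every antibody, and they lay on 19 chromosomes. Of the 104 gaps that passed through *T* = 0 alone 71 were called (68.3%), beside 17.9% of the tiles that passed in this way. The filter built a fall into these gaps and tiles, so their shares are given as a description. Of the 21 gaps that reached the level at both time points 2 were called (9.52%), beside 0.536% of 66004 tiles, and the median log2 change of these 21 gaps was −0.06. The fitted log2 changes of the 129 ranged from −2.47 to 0.56 with a median of −1.33, beside a median of −0.10 over all regions tested. The *T* = 0 libraries lay above the *T* = 6d libraries in 90 of the 129 (tiles 5.15%). Leaving out an antibody also changed which gaps passed the filter. The count was 2 of 43 gaps (tiles 0.391%) without the Upstate-type antibody. It was 24 of 194 (tiles 0.992%) without lot 58206 and 22 of 211 (tiles 0.509%) without lot 638466. Of the 73 gaps, 26 shared a flank with another gap. Without the antibody as a term the limma count was 0, with 53 gaps and 1270 of the 95853 tiles lower at an unadjusted *P* below 0.05.

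The gap with the largest fitted fall was chr12:55459625-55462360. Its flanks held 61, 36, 7 and 2 Upstate-type tags at *T* = 0, 2d, 4d and 6d, 50 and 11 tags with lot 58206 at *T* = 0 and 6d, and 63 and 11 with lot 638466. Every *T* = 0 value was several times every *T* = 6d value, and the groups did not overlap. The signal was on both sides of this gap, with 31 tags on the left and 30 on the right in the Upstate-type *T* = 0 library. The log2 change was −2.47 (SE 0.32, limma adjusted *P* = 0.00113), a fold of 0.18, and did not pass when the Upstate-type antibody was left out (limma adjusted *P* = 0.502). Counting error alone gave 46.7 to 78.4 tags for the Upstate-type value at *T* = 0 and 0.242 to 7.22 at *T* = 6d.

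At chr13:114354011-114356433 the flanks held 31, 8, 2 and 1 Upstate-type tags, 24 and 2 with lot 58206, and 36 and 5 with lot 638466. Nearly all of them were on the right, which held 30 of the 31 Upstate-type tags at *T* = 0. Most of the tags were lost by *T* = 2d, and the groups did not overlap. Its log2 change was −2.35 (SE 0.33, limma adjusted *P* = 0.00139). The flanks of chr5:92907835-92911001 held 61, 35, 15 and 10 Upstate-type tags, 41 and 4 with lot 58206, and 30 and 2 with lot 638466. Here all 61 Upstate-type tags at *T* = 0 were on the right and 0 on the left. With the Upstate-type antibody more tags remained at *T* = 6d than with the Abcam lots, and each *T* = 6d value was below each *T* = 0 value. The log2 change was −2.29 (SE 0.27, limma adjusted *P* = 0.000971), with a limma adjusted *P* of 0.168 when the Upstate-type antibody was left out.

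On chromosome 12, the gap at chr12:41134032-41135702 had 29, 14, 9 and 0 Upstate-type tags beside it, 19 and 3 with lot 58206, and 33 and 4 with lot 638466. The lowest value was the Upstate-type library at *T* = 6d, and the groups were separate. The gap at chr11:88772359-88775064 had 21, 7, 2 and 1 Upstate-type tags, 23 and 1 with lot 58206, and 34 and 5 with lot 638466, and 18 of its 21 Upstate-type tags at *T* = 0 lay on the left. It declined at each step. The log2 change was −2.29 (SE 0.39) for the former and −2.23 (SE 0.37) for the latter, with limma adjusted *P* of 0.0041 and 0.00329. Both share a flank with another gap. Leaving out lot 638466 gave limma adjusted *P* of 0.0861 and 0.112, and leaving out lot 58206 gave 0.0636 for the latter.

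A pair of neighbouring gaps on chromosome 9 shares a flank. The first, chr9:121231638-121233418, had 27, 13, 0 and 5 Upstate-type tags beside it, 22 and 1 with lot 58206, and 37 and 2 with lot 638466. Tags were absent at *T* = 4d and few at *T* = 6d, below each *T* = 0 value, and 25 of the 27 Upstate-type tags at *T* = 0 were on its left. The second, chr9:121234019-121237489, had 33, 11, 3 and 3 Upstate-type tags, 32 and 7 with lot 58206, and 51 and 6 with lot 638466, of which 31 of the 33 were on its right. Most tags of this pair thus lay on its outer sides. The short stretch between the gaps held few, and whether it lacks the mark or unique sequence cannot be told apart. Their log2 changes were −2.19 (SE 0.32, limma adjusted *P* = 0.00167) and −2.14 (SE 0.28, limma adjusted *P* = 0.00122). The second gap was also among those lower at *T* = 2d, at 0.333 of the *T* = 0 tags (*P* = 0.00126 by Fisher's exact test).

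The same arrangement was found on chromosome 16. Beside chr16:33847461-33848997 there were 52, 26, 9 and 9 Upstate-type tags, 43 and 8 with lot 58206, and 51 and 7 with lot 638466, and 47 of the 52 at *T* = 0 were on its left. Beside chr16:33849723-33852187 there were 33, 11, 5 and 3 Upstate-type tags, 20 and 3 with lot 58206, and 35 and 7 with lot 638466, and 28 of the 33 were on its right. All *T* = 0 values exceeded all *T* = 6d values in both. The log2 changes were −2.08 (SE 0.26, limma adjusted *P* = 0.00103, or 0.0749 when the Upstate-type antibody was left out) and −1.96 (SE 0.30, limma adjusted *P* = 0.00214).

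At chr9:110874428-110878248, the longest gap of those with the largest falls, the decline was late. Its flanks held 31, 22, 19 and 3 Upstate-type tags, 20 and 1 with lot 58206, and 25 and 2 with lot 638466, with 30 of the 31 at *T* = 0 on the right. Against *T* = 0, neither day 2 (*P* = 0.272) nor day 4 (*P* = 0.119) passed Fisher's exact test, while *T* = 6d did (*P* = 7.66e-07, Fisher's exact test). The remaining gaps of this group were chr3:83951604-83953431, with 26, 10, 0 and 2 Upstate-type tags, 27 and 2 with lot 58206 and 31 and 5 with lot 638466, and chr16:16934842-16937524. The flanks of the latter held 27, 23, 2 and 1 Upstate-type tags, 22 and 3 with lot 58206, and 31 and 6 with lot 638466. In it the tags at *T* = 2d did not pass (*P* = 0.672, Fisher's exact test) and nearly all were gone by *T* = 4d (*P* = 1.62e-06), and all 27 Upstate-type tags at *T* = 0 were on the left. The log2 changes of these 3 gaps were −2.19, −2.17 and −2.08, with limma adjusted *P* of 0.00332, 0.00178 and 0.00303. The last had 0.0534 when lot 638466 was left out, and the gap on chromosome 3 shares a flank with another gap.

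The enriched gap with the smallest ratio of *T* = 2d to *T* = 0 was chr8:26982066-26983790. Its flanks held 28, 3, 2 and 4 Upstate-type tags, 28 and 8 with lot 58206, and 46 and 10 with lot 638466. The counting interval at *T* = 2d was 0.619 to 8.77 tags and included the later values. Whether the fall was complete by then cannot be told from so few tags, and the gap was picked for its low *T* = 2d ratio. The tags at *T* = 2d were 0.107 of those at *T* = 0 (*P* = 4.65e-06 by Fisher's exact test). At chr16:89997603-89999380 there were 26, 7, 4 and 1 Upstate-type tags, 20 and 3 with lot 58206, and 35 and 10 with lot 638466, with 8 on the left and 18 on the right at *T* = 0 of the Upstate-type antibody. It declined at each step, at *T* = 2d to 0.269 (*P* = 0.00132 by Fisher's exact test). By the same Fisher's exact test the value was 0.258 (*P* = 0.000294) at chr13:114354011-114356433 and 0.333 (*P* = 0.00126) at chr16:33849723-33852187.

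Not all flanks with many tags were called lower by limma. The gap with the highest scaled tag number among those that did not pass was chr8:26946973-26948585, with 107, 186, 133 and 88 Upstate-type tags, 20 and 13 with lot 58206, and 28 and 13 with lot 638466. It was highest at *T* = 2d, where it exceeded *T* = 0 (*P* = 4.58e-06 by Fisher's exact test), and its counts were far higher with the Upstate-type antibody than with either Abcam lot. Its log2 change at *T* = 6d was −0.53 (SE 0.25, limma adjusted *P* = 0.491). This gap lies on the same chromosome and within the same Mb as chr8:26982066-26983790, whose flanks lost most of their tags by *T* = 2d.

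A like excess with the Upstate-type antibody was found at chr12:13227807-13229603, with 35, 32, 41 and 43 Upstate-type tags, 8 and 7 with lot 58206, and 6 and 11 with lot 638466. It was also found at chr5:21276677-21278231, with 35, 43, 38 and 37 Upstate-type tags, 3 and 6 with lot 58206, and 15 and 10 with lot 638466. In both, the time points overlapped. Their log2 changes were 0.22 (SE 0.28) and 0.06 (SE 0.29), with limma adjusted *P* of 0.917 and 0.985.

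The flanks of chr5:33074166-33075881 were rich in tags with every antibody and held 24, 15, 18 and 34 Upstate-type tags, 34 and 30 with lot 58206, and 55 and 42 with lot 638466. The value at *T* = 6d was the higher one with the Upstate-type antibody and the lower one with both Abcam lots, and the log2 change was −0.02 (SE 0.26, limma adjusted *P* = 0.995). It is the enriched gap that ended above its start in the plot of the 41 time courses. At chr9:116351196-116355151 there were 30, 20, 8 and 4 Upstate-type tags, 27 and 16 with lot 58206, and 32 and 22 with lot 638466. Every antibody was lower at *T* = 6d and the Upstate-type values declined at each step, but the log2 change of −1.08 (SE 0.33) did not pass (limma adjusted *P* = 0.102). Its *T* = 6d counts with the Abcam lots were higher than those of the called gaps named above.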

How the data were processed

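The libraries were grouped by time point from the sample labels, and the antibody served as replicate number. The authors kept reads that mapped to a single place with at most 1 mismatch, equalised tag numbers within an antibody, and deposited each tag as an interval of 300 bp in mm9, with no strand and no value per region. Of the files' columns, 0 columns of sample values were left unused. Interval midpoints were counted in flanks (1 kb), outer pieces (20 kb further out) and 2-kb tiles away from gaps (Python 3.11.15 with numpy 2.4.6, pandas 2.3.3, scipy 1.17.1 and, for figures, matplotlib 3.10.9). Ratios carry 95% counting intervals. limma 3.58.1 (R 4.3.3, lmFit, eBayes with trend) was adjusted over all regions tested. Both tests were also run on simulated data.

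The members, limits and lists were chosen with earlier results of these data known. Named gaps are the 10 with the largest fall among those called the same way with every antibody, the 5 not called with the highest tag number per 1000000, and the 5 enriched gaps with the smallest *T* = 2d ratio among those called lower. A gap that shares a flank with one above it in the same ranking was passed over. Libraries are paired by antibody: after subtracting the time point means, the libraries of a pair correlated at r = 0.865 (Upstate-type), 0.845 (lot 58206) and 0.312 (lot 638466) over 96709 regions. Alternatives varied the flank, outer distance, enrichment limit and libraries, pseudocount, filter, scaling, antibody term and antibodies used. Genes, repeats and sequences at these positions were not analysed here, because the reference at hand is of another build.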

Additional observations from a re-analysis of the deposited data

How the results depend on the processing

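The fall of the flank level at *T* = 6d kept its direction under all 10 alternatives, with log2 changes from −0.37 to −0.23. The mean *T* = 0 level of 0.679 became 0.622 without the tag that bounds the gap, 0.641 with outer pieces away from other gaps and 0.757 for gaps sharing no flank. The share of enriched gaps called lower by the Fisher's exact test at *T* = 2d, 4d and 6d was 8.02%, 54.7% and 59.9% with the limit at 2 times the median, 6.24%, 46.7% and 59.0% with gaps chosen on the Upstate-type *T* = 0 library (497 gaps, a choice that uses the tested library), and 8.54%, 45.1% and 48.8% with each flank tested alone. At *T* = 2d it was 50% at 5 times the median (2 of 4 gaps) and 40% with *T* = 0 and *T* = 6d of the Abcam lots pooled (2 of 5). An alternative chosen after seeing the data, enrichment in lot 638466 at *T* = 0 alone, gave 20.5%, 70.5% and 75%, and the 25 gaps sharing no flank, also chosen then, gave 16%, 80% and 88%. The count of 73 gaps lower by limma became 234 of 1818 with a filter at 1 time the median (tiles 0.789%). It was 13 of 23 at 3 times (tiles 2.41%) and 47 of 94 for gaps sharing no flank (tiles 3.01%). With no filter it was 0 of 16471, with 1662 gaps and 55687 of 1116436 tiles lower at an unadjusted *P* below 0.05. The limma count was 2 of 43 without the Upstate-type antibody, 24 of 194 without lot 58206 and 22 of 211 without lot 638466. Without the replicate block it was 0 (53 lower at an unadjusted *P* below 0.05), and the number higher was 0 under every setting. The 10 gaps with the largest falls lost their call without a filter and without the block. Without the Upstate-type antibody only 3 of the 10 still reached the filter, and all 3 lost the call. None of the 10 was thus called with the Abcam lots alone. All 10 still reached the filter without lot 58206, where 1 lost the call, and without lot 638466, where 3 did. None of the 10 changed sign. The causes were not tested. Depth limits single gaps, since 12.3% to 32.8% of flank pairs held no tag in a given library.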
